A study of Mus musculus with 6 samples.

Results

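Mouse embryonic stem cell lines that lack Dppa2, also called ECAT15-2, and had received a vector for Flag-tagged Dppa2 were compared with wild-type lines, to describe which genes still differed after the protein was returned. The comparison used 4 of the 6 arrays of the series, chosen by their titles: 2 of Flag-Dppa2 knockout lines and 2 of wild-type lines. The other 2 arrays, of the same knockout lines with an empty vector (mock), share the fit and are given beside single genes. RNA was taken from cells grown without feeders on gelatin in medium with serum and LIF, a cytokine that holds these cells in the pluripotent state, and was hybridised with 1 dye (Cy3) to Agilent whole mouse genome arrays.

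The wild-type lines were 15-1+/+ and 15-2+/+, where 15-1 stands for ECAT15-1 (Dppa4), and had not been transduced. The Flag-Dppa2 lines were 15-1CT/CT and 15-2-/-, with a conditional targeted (CT) allele of Dppa4, and carried piggyBac-CAG-Flag15-2-IP, in which the constitutive CAG promoter drives the tagged protein in place of the gene's own promoter. The mock lines had the same genotype and carried piggyBac-CAG-IP. Flag-Dppa2 therefore differs from wild type in the Dppa2 deletion, the source and level of Dppa2, the Dppa4 allele, the vector and the transduction, and these cannot be told apart. Every line was derived from a blastocyst. Lines of replicates 1 and 2 came from different mothers, and the mock and Flag-Dppa2 arrays of one number share a knockout line (line 1 and line 2). The labels do not say whether the transduced cells were a clone or a pool.

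Dppa2 is a nuclear protein with a SAP domain, a DNA-binding fold, that is made in pluripotent cells and the early germline. It works with its paralogue and genomic neighbour Dppa4 at GC-rich promoters, many of them of developmental and germline genes. It is known for keeping such promoters open to activation and free of DNA methylation, and as an activator of the genes of the two-cell-like state, a rare state of these cultures that resembles the early embryo.

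All levels are log2 signals relative to the 75th percentile of the array, so a level of 0 is that percentile and a difference of 1 is 2-fold. A gene was called higher or lower at an adjusted p under 0.05 in limma's moderated test. Where neither array of a group was well above background, a limit of the fold is given as "at least". In each array 55.8% to 60.3% of the probes were well above background and no spot was saturated. With 2 arrays a group, precision is limited by their number.

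Several arrays stand apart. The wild-type arrays differed from each other by less than the scanner's error: 5 of 14943 bright spots differed by over 2-fold and 0.442% exceeded the scanner's 95% limit, against 463 spots and 24.7% for the Flag-Dppa2 arrays. The labels give them different mothers, but they may be 1 sample, so the error of a wild-type mean is not known and none is printed. SEs and p-values of differences pool the spread of all 3 groups (median SD 0.04 in wild type, 0.17 in Flag-Dppa2). These errors and p-values would be too small if the wild-type arrays were 1 sample. With them averaged into 1 sample limma called 0 genes, with 1049 at an unadjusted p under 0.05. All wild-type and mock arrays were on slide 1 and both Flag-Dppa2 arrays on slide 2, so slide and group cannot be told apart. Both wild-type arrays expressed Y-linked genes and no knockout array did, so the presence of a Y chromosome is confounded with genotype as well and cannot be told apart from it. Genes of chromosome 8 had a median difference from wild type of 0.44 in Flag-Dppa2 line 2 and -0.01 in line 1.

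Dppa2 itself was at 2.13 and 2.07 in the wild-type arrays, -2.09 and -2.0 in mock and -0.05 and 0.35 in Flag-Dppa2. No pair of arrays overlapped with another, and Flag-Dppa2 lay between the others. Its mean of 0.15 ± 0.29 (SD, n = 2) was 3.87-fold below wild type (log2 difference -1.95, SE 0.16, adjusted p = 0.0409) and 4.59-fold above mock (adjusted p = 0.0268). The probe was well above background in the mock arrays too. Where it binds relative to the deletion and to the cDNA of the vector was not tested, so the array does not give the amount of tagged protein. Dppa4 was at 3.60 and 3.78 in Flag-Dppa2 against 2.96 and 2.99 in wild type, a log2 difference of 0.72 that was not called (adjusted p = 0.0876). The probes that these files tie to Dppa3 and Dppa5a, other genes first found by their expression in pluripotent cells, gave differences of -0.69 and 0.30 that were not called either (adjusted p = 0.234 and 0.19).

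Across the 13298 genes tested, 69 were called different between Flag-Dppa2 and wild type, which is 0.519%. Of these, 50 were lower (0.376% of the genes tested) and 19 were higher (0.143%), and 64 differed by at least 2-fold. Genes that fell included innate immune sensors (Nod1, Zbp1), genes of the two-cell-like state (Usp17la, Gm428, Tcstv1), secreted and matrix proteins (Reg2, Stc2, Loxl1) and the Y-linked genes. Genes that rose included inhibitors of transcription factors and of the cell cycle (Mdfi, Id1, Cdkn1c), the lipid transporter Abca1, the spindle motor Kifc1 and the nuclear envelope protein Emd. These are examples from the 50 lower and 19 higher genes, and no grouping by function was tested.

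Of the 50 lower genes, 23 were not well above background on either Flag-Dppa2 array and 26 were above it on both. Of the 19 higher genes, 3 were not well above background on either wild-type array. With unnamed probes, 100 of 18764 features were called (0.533%). In the same fit mock differed from wild type at 889 genes (6.69%) and Flag-Dppa2 from mock at 117 (0.88%), and these comparisons share arrays with this one. The median absolute difference between Flag-Dppa2 and wild type was 0.23 over genes above background on all arrays. An unadjusted p under 0.05 was reached by 2844 genes.

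These counts depend on the fit. With the replicate number as a block, which pairs lines by mother, limma called 0 genes (smallest adjusted p = 0.0752, and 3028 genes at an unadjusted p under 0.05). Leaving out any 1 of the 4 arrays also gave 0, whichever of wild type 1, wild type 2, Flag-Dppa2 1 or Flag-Dppa2 2 was left out (1056 to 3026 genes at an unadjusted p under 0.05). Quantile normalization gave 62 higher and 94 lower genes, normexp background correction 143 and 150, and an intensity trend in limma's variance 140 and 106, so that lower genes outnumbered higher ones clearly in the first, barely in the second and not in the last. All 69 genes kept their direction in these fits. With the block and the trend this holds by construction, since they use the same group means. With 1 array left out it was fixed too, since in each of the 69 both Flag-Dppa2 arrays lay on the same side of both wild-type arrays.

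**Figure D1:**
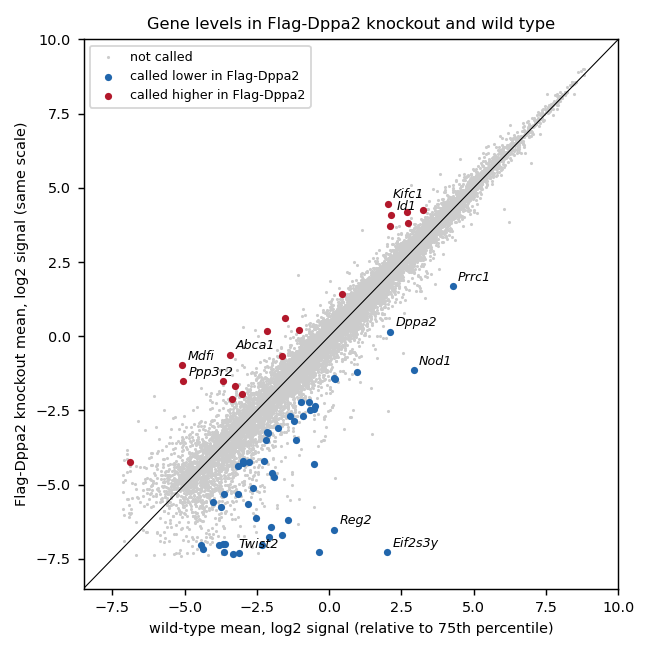
Mean level of each tested gene in Flag-Dppa2 (y axis, mean of 2 arrays) against wild type (x axis, mean of 2 arrays), both as log2 signal relative to the array's 75th percentile, with called genes in colour. Most genes lie along the diagonal, and the 50 genes called lower outnumber the 19 called higher.

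A count without a model used the same scaling and background floor. Genes were counted as apart where both arrays of a group were at least 2-fold over both of the other, with signals below background set to the lowest signal above it. By this count 245 genes were lower in Flag-Dppa2 (1.84%) and 99 were higher (0.744%). At 4-fold there were 55 lower (0.414%) and 11 higher (0.0827%). Lower genes were the majority in both counts, at 2-fold in a proportion close to that among the called genes and at 4-fold in a larger one.

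The promoters of 4 called genes are shown because they are the clearest cases of a residual loss from a high level (Nod1), from a moderate level to background (Reg2), of a developmental regulator to background (Twist2) and of a gain from background (Mdfi). Each is the 250 bases before a RefSeq start site in GRCm38.p6, in the gene's own direction, with the dinucleotide CG, where DNA methylation occurs, in capitals. For genes with several starts the one with the most CG was taken. The positions are chr6:54972613-54972862 (minus strand) for Nod1, chr6:78404905-78405154 (plus) for Reg2, chr1:91801211-91801460 (plus) for Twist2 and chr17:47833292-47833541 (minus) for Mdfi.
Nod1: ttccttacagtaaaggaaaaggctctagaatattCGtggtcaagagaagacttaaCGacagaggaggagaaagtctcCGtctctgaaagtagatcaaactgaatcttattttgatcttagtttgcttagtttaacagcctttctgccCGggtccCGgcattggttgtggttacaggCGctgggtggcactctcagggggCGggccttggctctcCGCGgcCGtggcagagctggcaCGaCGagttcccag
Reg2: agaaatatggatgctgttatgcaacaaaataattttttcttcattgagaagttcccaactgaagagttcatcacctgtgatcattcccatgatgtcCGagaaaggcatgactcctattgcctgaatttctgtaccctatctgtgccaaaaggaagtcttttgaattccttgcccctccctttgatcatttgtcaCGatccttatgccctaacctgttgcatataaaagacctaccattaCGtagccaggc
Twist2: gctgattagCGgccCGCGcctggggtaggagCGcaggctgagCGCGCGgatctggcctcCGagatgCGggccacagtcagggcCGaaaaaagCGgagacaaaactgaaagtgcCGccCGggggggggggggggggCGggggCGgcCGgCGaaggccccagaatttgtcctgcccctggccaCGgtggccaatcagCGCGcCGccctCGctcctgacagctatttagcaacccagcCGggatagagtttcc
Mdfi: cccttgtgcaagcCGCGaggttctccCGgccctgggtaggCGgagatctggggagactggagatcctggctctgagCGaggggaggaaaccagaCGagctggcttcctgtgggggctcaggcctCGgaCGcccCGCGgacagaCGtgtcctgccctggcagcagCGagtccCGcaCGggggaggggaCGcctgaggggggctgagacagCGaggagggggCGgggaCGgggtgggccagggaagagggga
The count of CG was 12 in Nod1, 3 in Reg2, 23 in Twist2 and 18 in Mdfi. Over 27025 promoters, 1 a gene, 92.3% held at least 1 CG, with a median of 6 and quartiles of 2 and 17. Among the lower genes shown, Reg2 was thus below that median, and Nod1 and Twist2 were above it. Methylation was not measured, and no comparison of called genes by CG was made. Promoters were at hand for 35 of the 50 lower genes (70.0%) and 14 of the 19 higher ones (73.7%), so such a comparison would leave out the rest.

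The lower genes included sensors of infection and genes that respond to interferon. Nod1 encodes a cytosolic sensor of bacterial peptidoglycan. Its level was 2.88 and 2.97 in wild type, -1.68 and -1.35 in mock and -1.11 and -1.16 in Flag-Dppa2. Flag-Dppa2 was far below wild type and just above mock, 16.7-fold below wild type (log2 difference -4.06, SE 0.14, adjusted p = 0.0165). Against mock the difference of 0.38 was not called (adjusted p = 0.375). Zbp1, a sensor of Z-form nucleic acids, was at -1.95 and -1.86 in wild type and at -4.40 and -5.07 in Flag-Dppa2, where it was above background on 1 array. It was 7.10-fold lower (adjusted p = 0.0425), with Flag-Dppa2 at the same mean as mock to within 0.01. Ifi35, an interferon-induced leucine zipper protein, was at 0.14 and 0.19 in wild type and -1.39 and -1.38 in Flag-Dppa2, 2.93-fold lower (adjusted p = 0.0409).

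Zbp1 and Ifi35 were the 2 called members of 41 interferon and antigen presentation genes tested, both lower, beside 0.376% of all genes called lower. The list's median difference was -0.51, against 0.03 over all genes, and it was -0.52 in line 1 and -0.46 in line 2. Over the 28 members above background on all 6 arrays the median was -0.34, and with normexp background correction it was -0.41 over the list. By the count without a model, 9 of the 41 were lower (1.84% of all genes) and 1, Irf5, was higher (0.744%).

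Several members differed widely but also varied between the 2 knockout lines. Gbp2, an interferon-induced GTPase, was at 2.06 and 2.01 in wild type, -2.59 and -6.39 in mock, and -0.26 and -4.78 in Flag-Dppa2. Psmb8, a catalytic subunit of the immunoproteasome, was at 0.81 and 0.63 in wild type, -5.36 and -6.82 in mock, and -1.45 and -3.96 in Flag-Dppa2. In both genes Flag-Dppa2 did not overlap with wild type and line 2 was the lower of the lines, with adjusted p = 0.283 for Gbp2 and 0.161 for Psmb8. Within each line Flag-Dppa2 was above mock in both genes, though for Gbp2 the 2 groups overlapped across lines. The differences from mock were not called (adjusted p = 0.77 for Gbp2 and 0.281 for Psmb8). Isg15, a ubiquitin-like modifier, was at -2.31 and -2.34 against -4.03 and -6.01, and was not called (adjusted p = 0.133). Other called genes of related function, picked out after their values were seen, were Herc6, the mouse ligase for Isg15 (at least 2.83-fold lower, adjusted p = 0.0362), the GTPase Gbp9 (2.75-fold lower, adjusted p = 0.0437) and Rnf135, a ubiquitin ligase of RNA sensing (2.52-fold lower, adjusted p = 0.0312).

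On the list of the two-cell-like state, 3 of the 11 members tested were called lower (0.376% of all genes) and none higher. By the count without a model 6 were lower (1.84% of all genes), and the median difference was -2.49. The filter lets a gene pass on its wild-type arrays alone. Over the 4 members above background on all 6 arrays the median was 0.18, so the direction of the list rests on members near or below background in the knockout lines. Usp17la, a deubiquitinase, was at -1.45 and -1.44 in wild type, -5.41 and -5.78 in mock and -6.39 and -5.99 in Flag-Dppa2. Both Flag-Dppa2 arrays were at background, which makes the gene at least 12.6-fold lower (adjusted p = 0.0237). Gm428 was at -1.57 and -1.73 in wild type and at background in Flag-Dppa2, at least 10.9-fold lower (adjusted p = 0.0303). Tcstv1, a gene of the early embryo, was at -2.56 and -2.68 and at background, at least 5.59-fold lower (adjusted p = 0.0303), and its second probe gave a log2 difference of -3.87 (adjusted p = 0.0231).

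Zscan4c, of the family that marks this state and acts in telomere maintenance, was at -1.01 and -1.07 in wild type and at -5.74 and -5.27 in Flag-Dppa2. The groups did not overlap and both Flag-Dppa2 values were at background, at least 16.7-fold lower, but the gene was not called (adjusted p = 0.0596). Other listed genes were near wild type: Eif1a, a translation initiation factor gene, differed by 0.31 (adjusted p = 0.202) and Gm5662 by 0.04 (adjusted p = 0.826). Usp17la, Gm428, Tcstv1, Zscan4c and Gm5662 belong to families of near-identical copies, and a probe may report more than 1 of them.

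Several germline genes were far below wild type without a call. None of the 15 germ granule and piRNA pathway genes was called by limma (5 at an unadjusted p under 0.05), and their median difference was -0.82. By the count without a model 5 were lower (1.84% of all genes) and none higher (0.744%). Over the 8 members above background on all 6 arrays the median was -0.73. Ddx4, the germ cell RNA helicase, was at 1.49 and 1.49 in wild type, -4.68 and -6.69 in mock and -2.56 and -4.05 in Flag-Dppa2. It was 27.7-fold lower than wild type, with groups that did not overlap, and was not called (adjusted p = 0.0898). Mael, a piRNA pathway gene, was at 0.03 and 0.04 in wild type and -1.30 and -3.63 in Flag-Dppa2 (adjusted p = 0.235). Dazl, an RNA-binding regulator of germ cells, was at -2.52 and -2.55 and at background on both Flag-Dppa2 arrays, at least 5.93-fold lower (adjusted p = 0.0667).

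Of 19 genes of meiosis and the synaptonemal complex, Meiob was called, and it was lower, beside 0.376% of all genes called lower. By the count without a model 4 were lower (1.84% of all genes) and none higher (0.744%). Meiob, a single-strand DNA-binding protein of meiotic recombination, was at -2.11 and -2.12 in wild type, -2.71 and -2.63 in mock and -3.20 and -3.32 in Flag-Dppa2. It was 2.21-fold below wild type (adjusted p = 0.042; 0.0553 with normexp), with Flag-Dppa2 the lowest of the 3 groups. Smc1b, the meiotic cohesin subunit, was at -0.53 and -0.55 in wild type and -2.79 and -3.56 in Flag-Dppa2, 6.20-fold lower and not called (adjusted p = 0.0551). Among 19 other germ cell genes none was called (8 at an unadjusted p under 0.05 in limma). By the count without a model 3 of the 19 were lower (1.84% of all genes) and 1, Mageb4, was higher (0.744%). Mageb4 was at -2.47 and -2.34 in Flag-Dppa2 against -3.59 and -3.73 in wild type (adjusted p = 0.0793), with -7.20 and -7.68 in mock. The list's median was -0.62, at -0.91 in line 1 and -0.17 in line 2.

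Other lower genes reached background or came close to it. Reg2, a secreted lectin of the regenerating family, was at 0.12 and 0.19 in wild type, -7.23 and -7.87 in mock and -5.86 and -7.18 in Flag-Dppa2. No knockout array was above background, so Reg2 was at least 38.3-fold lower (log2 difference -6.68, SE 0.50, adjusted p = 0.0364). Hsf5, a heat shock factor family member of the testis, was at -0.48 and -0.56 in wild type and -3.99 and -4.63 in Flag-Dppa2, 13.8-fold lower (adjusted p = 0.0364). Parva, the focal adhesion protein alpha-parvin, was at -2.38 and -2.27 in wild type and at background in Flag-Dppa2, at least 6.85-fold lower (adjusted p = 0.0303), and a second probe gave a log2 difference of -4.48 (adjusted p = 0.0286).

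Nckap1l, the blood-cell subunit of the WAVE actin-nucleation complex, was at -2.04 and -1.94 in wild type, -6.64 and -6.97 in mock and -4.39 and -4.82 in Flag-Dppa2. It lay between the other groups, 6.12-fold below wild type (adjusted p = 0.0364) and, since mock was at background, at least 1.68-fold above mock (adjusted p = 0.0394). 4930486L24Rik was at least 8.56-fold lower than wild type (adjusted p = 0.0362) and Speer4f1, of a multi-copy family, at least 8.12-fold (adjusted p = 0.0362). Both were at background on all knockout arrays.

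Some called genes fell from high levels and stayed measurable; the following were chosen after their values were seen. Prrc1 was at 4.25 and 4.28 in wild type, 0.57 and 0.56 in mock and 1.50 and 1.88 in Flag-Dppa2, 5.97-fold below wild type (adjusted p = 0.0303). Stc2, the secreted glycoprotein stanniocalcin 2, was at 0.90 and 1.02 in wild type and -1.29 and -1.15 in Flag-Dppa2, 4.52-fold lower (adjusted p = 0.024). Ptges, which makes prostaglandin E2, was at 0.21 and 0.20 against -1.43 and -1.46, 3.14-fold lower (adjusted p = 0.0271). In all 3 genes Flag-Dppa2 was above mock on both arrays and far from wild type. The differences from mock, 1.13 for Prrc1, 0.67 for Stc2 and 0.51 for Ptges, were not called (adjusted p = 0.08, 0.107 and 0.12). Tspo2, a cholesterol-binding protein of red cell precursors, stood differently: it was at -0.76 and -0.63 in wild type, -1.43 and -1.38 in mock and -2.20 and -2.23 in Flag-Dppa2, so that Flag-Dppa2 was the lowest group (2.87-fold below wild type, adjusted p = 0.0312).

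**Figure D2:**
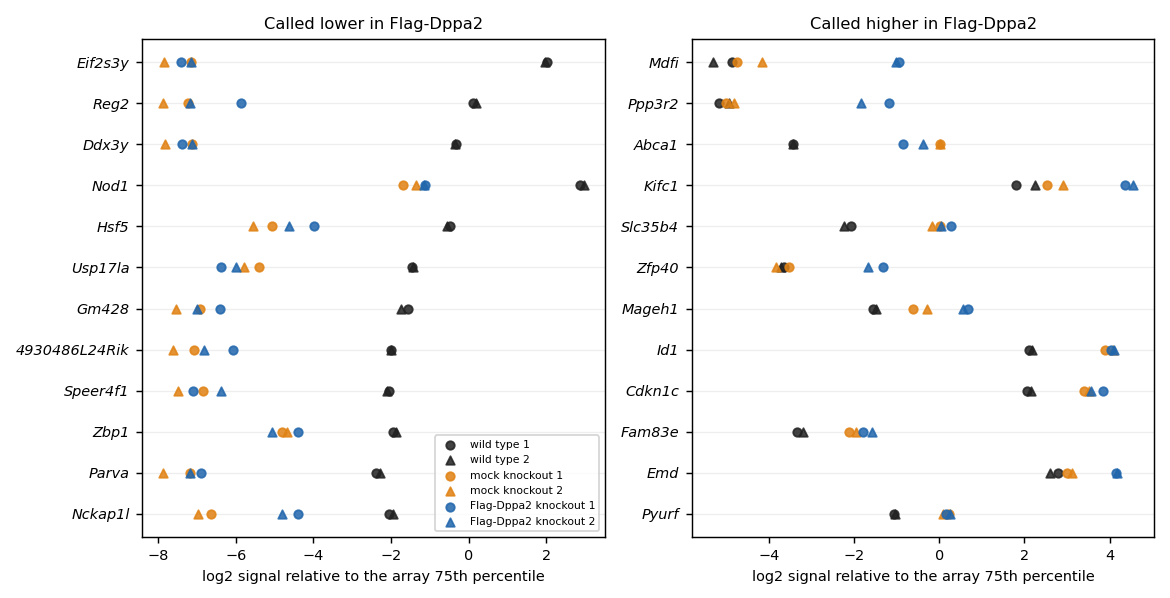
Levels in each array of the 12 genes with the largest called differences in each direction, as log2 signal relative to the array's 75th percentile, for wild type, mock and Flag-Dppa2 with 2 arrays each. Nod1, at 2.88 and 2.97 in wild type, was at -1.11 and -1.16 in Flag-Dppa2, while Mdfi stood at -0.95 and -1.01 in Flag-Dppa2 and was not above background in wild type.

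All 3 Y-linked genes tested were called lower. Eif2s3y, a translation initiation factor subunit, was at 2.01 and 1.98 in wild type and at background on every knockout array, at least 137-fold lower (adjusted p = 0.0165). Ddx3y, an RNA helicase, was at -0.32 and -0.36 and at background, at least 27.2-fold lower (adjusted p = 0.0193). Zfy2, a zinc finger gene, was at least 1.59-fold lower (adjusted p = 0.0237). Xist, the RNA that coats an inactive X, was not above background on either wild-type array and was above it on 1 of the 2 Flag-Dppa2 arrays, and was not called (adjusted p = 0.452).

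Of 451 X-linked genes, 3 were called higher (0.143% of all genes) and 3 lower (0.376%). The median difference of the X-linked genes was 0.01, against 0.03 over all genes. Emd, the inner nuclear membrane protein emerin, was at 2.78 and 2.61 in wild type, 3.01 and 3.11 in mock and 4.16 and 4.18 in Flag-Dppa2. It was 2.78-fold above wild type (adjusted p = 0.0362) and 2.16-fold above mock (adjusted p = 0.0442), while mock lay 0.37 above wild type (adjusted p = 0.122). Mageh1, of the MAGE family, was at -1.56 and -1.48 in wild type, -0.62 and -0.29 in mock and 0.67 and 0.55 in Flag-Dppa2, 4.38-fold above wild type (adjusted p = 0.0362). In both genes Flag-Dppa2 was the highest group. Gm6812 was 3.14-fold lower (adjusted p = 0.0425), and Xlr5a, of a multi-copy family with meiotic members, was at least 2.76-fold lower (adjusted p = 0.0364).

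Among the higher genes, some were high only with Flag-Dppa2 and others also in mock. Mdfi, an inhibitor of myogenic bHLH transcription factors, was not above background in wild type, was at -4.76 and -4.17 in mock and at -0.95 and -1.01 in Flag-Dppa2. It was at least 14.1-fold above wild type (adjusted p = 0.0313) and 11.2-fold above mock (adjusted p = 0.0272), and a second probe gave a log2 difference from wild type of 4.32 (adjusted p = 0.0361). Ppp3r2, the testis form of the calcineurin regulatory subunit, was below background in wild type and at -1.19 and -1.84 in Flag-Dppa2, at least 10.1-fold above wild type (adjusted p = 0.0362), and it was 10.6-fold above mock (adjusted p = 0.0268). Zfp40, a zinc finger gene, was at -3.65 and -3.71 in wild type, -3.53 and -3.84 in mock and -1.31 and -1.68 in Flag-Dppa2. Wild type and mock overlapped, and Flag-Dppa2 was 4.54-fold above wild type (adjusted p = 0.042) and 4.56-fold above mock (adjusted p = 0.0361).

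Zfp40 and Emd were the named genes whose mock mean lay within 0.5 of wild type, and Ppp3r2, at background in wild type, was the other called gene of that kind. Mock and Flag-Dppa2 arrays were on different slides. Kifc1, a minus-end kinesin of the spindle, was at 1.80 and 2.24 in wild type, 2.54 and 2.90 in mock and 4.37 and 4.56 in Flag-Dppa2, 5.44-fold above wild type (adjusted p = 0.0442). Its near-identical copy Kifc5b was at 3.37 and 3.78 against 0.96 and 1.35 and was not called (adjusted p = 0.0519), and the probes of the pair may not be specific to either copy.

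Abca1, the transporter that exports cholesterol, was at -3.43 and -3.44 in wild type, 0.02 and 0.01 in mock and -0.86 and -0.38 in Flag-Dppa2. Flag-Dppa2 was nearer to mock than to wild type, at 7.04-fold above wild type (adjusted p = 0.0312). Abca1 was the only called gene of 28 sterol genes, beside 0.143% of all genes called higher. The list's median was -0.19.

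Id1, an inhibitor of bHLH factors and a target of BMP signalling, was at 2.10 and 2.18 in wild type, 3.89 and 4.08 in mock and 4.03 and 4.11 in Flag-Dppa2. The knockout groups overlapped and both were above wild type, with Flag-Dppa2 3.81-fold higher (adjusted p = 0.0303), and a second probe gave a log2 difference of 1.93 (adjusted p = 0.0342). Cdkn1c, the imprinted inhibitor of cyclin-dependent kinases, was at 2.07 and 2.15 in wild type and 3.84 and 3.57 in Flag-Dppa2, 3.03-fold higher (adjusted p = 0.0402). It was the called member of 48 imprinted genes, whose median was 0.15, beside 0.143% of all genes called higher. Slc35b4, a nucleotide sugar transporter, was 4.97-fold higher by its brightest probe (adjusted p = 0.0303), but 2 other probes gave log2 differences of 0.76 and 0.85 that were not called, and with normexp background correction the gene's value was 0.63 and not called (adjusted p = 0.0651). Fam83e was 2.98-fold higher (adjusted p = 0.042) and Pyurf 2.40-fold (adjusted p = 0.0364), and a dim second probe of Pyurf gave -0.24 (adjusted p = 0.542).

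The cells kept the markers of embryonic stem cells. All 7 tested of 8 markers were above background in both groups. Their summed linear signals were 483 and 469 times the 75th percentile in wild type and 566 and 677 in Flag-Dppa2. Nanog had no probe named through the tables used here. Pou5f1, the pluripotency factor Oct4, was at 3.01 and 2.67 in wild type, 3.57 and 3.68 in mock and 5.37 and 4.84 in Flag-Dppa2. The groups did not overlap and Flag-Dppa2 was 4.79-fold higher, at an adjusted p of 0.0519, so it was not called; with normexp background correction it was (adjusted p = 0.0316). Sox2 was at 3.72 and 3.98 against 3.72 and 3.74 (log2 difference 0.12, adjusted p = 0.679). Zfp42, a marker of the naive state on chromosome 8, was at 3.56 in line 1 and 6.35 in line 2, with 3.57 and 3.63 in wild type.

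Genes of 27 on the naive pluripotency list had a median difference of 0.16 and those of 20 on the formative and primed list -0.27; limma called none of either (8 at an unadjusted p under 0.05 in each). Fgf5, an FGF ligand that marks the primed state, was at -0.28 and -0.30 in wild type, -3.84 and -4.02 in mock and -1.47 and -2.52 in Flag-Dppa2 (adjusted p = 0.113). Fgf8 was at 0.12 and 0.07 in wild type, -2.57 and -2.81 in mock and -1.84 and -2.96 in Flag-Dppa2 (adjusted p = 0.0811). Fgf5 thus lay between the groups in Flag-Dppa2, while Fgf8 overlapped with mock.

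Of the 10 fibroblast markers 8 were tested, and 7 were above background on both wild-type arrays but 4 on both Flag-Dppa2 arrays, with summed linear signals of 5.13 and 5.51 against 2.05 and 2.01. In bulk RNA, fewer cells of a type and less RNA per cell cannot be told apart. Twist2, a bHLH factor of mesenchyme, was at -3.23 and -3.40 in wild type and at background on every knockout array, at least 3.44-fold lower (adjusted p = 0.0165). Loxl1, which crosslinks elastin, was at -2.17 and -2.33 in wild type, at background in mock and at -4.10 and -4.28 in Flag-Dppa2, 3.83-fold lower (adjusted p = 0.0473). Flag-Dppa2 lay between the other groups there (at least 2.24-fold above mock, adjusted p = 0.0264).

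Twist2 and Loxl1 were the called members, both lower, of 35 collagen and matrix genes, beside 0.376% of all genes called lower. Twist2 passed the filter on its wild-type arrays alone. By the count without a model 5 were lower (1.84% of all genes) and none higher (0.744%). The list's median was -0.53, at -0.07 in line 1 and -0.89 in line 2, so it rests mostly on line 2. It was -0.37 over the 25 members above background on all 6 arrays, and -0.23 over the list with normexp background correction. Col1a1, the main chain of type I collagen, was at 0.78 and 0.75 in wild type and -1.56 and -3.87 in Flag-Dppa2, and was not called (adjusted p = 0.161). The part of the fibroblast markers in these differences was not tested.

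Neural and Hox genes had medians above that of all genes, with no call. Of 21 neural ectoderm genes, 5 were higher (0.744% of all genes) and none lower (1.84%) by the count without a model, with a median of 0.48; limma called none (12 at an unadjusted p under 0.05). Mag, a myelin-associated glycoprotein, was at -1.12 and -1.06 in wild type, 2.79 and 2.06 in mock and 2.35 and 1.77 in Flag-Dppa2, 8.89-fold above wild type (adjusted p = 0.0526). Dmbx1, a homeobox gene of the midbrain, was at -3.35 and -3.41 in wild type, 0.83 and 0.34 in mock and -0.63 and -2.0 in Flag-Dppa2 (adjusted p = 0.127). Mag thus overlapped with mock across lines, with Flag-Dppa2 below mock within each line (difference from mock not called, adjusted p = 0.733). Dmbx1 lay between mock and wild type. The summed linear signal of the 4 neural progenitor markers tested was 9.79 and 9.97 in wild type and 6.67 and 9.33 in Flag-Dppa2.

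Of 11 Hox genes 3 were higher by that count (0.744% of all genes), with a median of 0.74, and limma called none (5 at an unadjusted p under 0.05). Only 4 of the 11 were above background on all 6 arrays, and the median was 0.43 with normexp background correction. Hoxd13, of the limb and genital end of its cluster, was at -4.80 and -4.76 in wild type and -2.91 and -3.19 in Flag-Dppa2 (adjusted p = 0.0596). Bmp4, a ligand upstream of Id1, was at -0.12 and -0.11 in wild type, 1.62 and 2.32 in mock and 1.22 and 1.77 in Flag-Dppa2, with no overlap between wild type and either knockout group (adjusted p = 0.101). Gata6, a primitive endoderm factor, was at -3.83 and -3.30 against -0.62 and -1.64 (adjusted p = 0.307). The summed signal of the 6 primitive endoderm markers was 0.637 and 0.619 in wild type and 1.57 and 0.985 in Flag-Dppa2, and that of the 4 trophoblast markers tested 2.12 and 2.12 against 2.07 and 0.924.

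**Figure D3:**
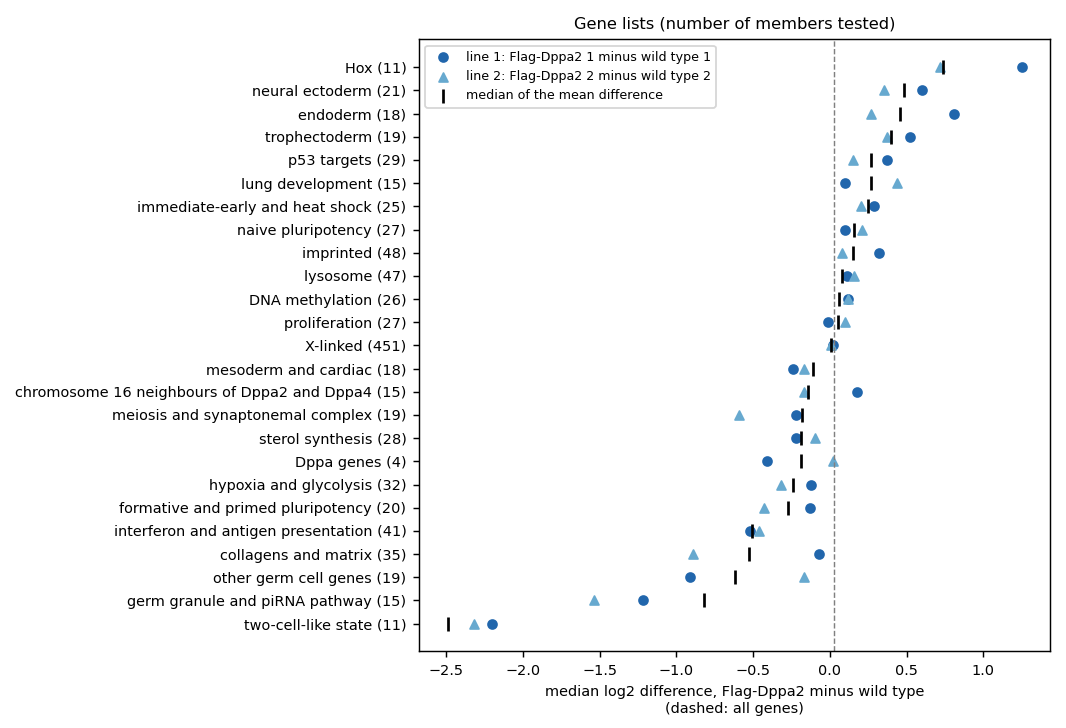
Median log2 difference between Flag-Dppa2 and wild type over the tested members of each gene list (number in brackets), for the mean (black tick) and for each line, with the median of all genes dashed. The two-cell-like list is the lowest at -2.49 and the Hox list the highest at 0.74. In each of these 2 lists only 4 of 11 members were above background on all 6 arrays. The Y-linked list, at -6.92, is left out of the plot.

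Some lists stayed close to the median of all genes. It was 0.06 over 26 DNA methylation genes, 0.05 over 27 proliferation genes and 0.08 over 47 lysosomal genes, with none called by limma (6, 4 and 11 at an unadjusted p under 0.05). The proliferation median was -0.05 with quantile normalization. Gadd45a, a stress-induced gene that also stands on the list of p53 targets, was the only DNA methylation gene counted as higher (0.744% of all genes). None was counted as lower (1.84%). Gadd45a was at 3.27 and 3.34 in Flag-Dppa2 against 2.15 and 2.21 in wild type (adjusted p = 0.0715). The median over 29 p53 targets was 0.27 (none called, 6 at an unadjusted p under 0.05 in limma), over 32 hypoxia and glycolysis genes -0.24 (none called, 14), and over 15 neighbours of Dppa2 and Dppa4 on chromosome 16 -0.14 (none called, 4). Egln3, a hypoxia-induced prolyl hydroxylase, was at -0.75 and -0.41 against 0.70 and 0.73 in wild type (adjusted p = 0.0571).

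The remaining lists also had no called member in limma. The median was 0.46 over 18 endoderm genes (6 at an unadjusted p under 0.05; 0.81 in line 1, 0.27 in line 2, and 0.18 over members above background on all arrays). It was 0.40 over 19 trophectoderm genes (10), 0.27 over 15 lung development genes (5), 0.25 over 25 immediate-early and heat shock genes (8) and -0.11 over 18 mesoderm and cardiac genes (3). Sftpd, the surfactant protein D gene, was at -2.57 and -2.71 against -3.88 and -3.93 in wild type (adjusted p = 0.0564). Krt7, a keratin of simple epithelia, was at -0.78 and -0.98 against 0.74 and 0.75 (adjusted p = 0.119). In both genes the groups did not overlap.

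The called genes were spread over the genome. Chromosome Y had 3 of 3 genes called, X 6 of 451 (1.33%), chromosome 6 had 7 of 640 (1.09%) and chromosome 17 had 6 of 665 (0.902%), beside 0.519% overall. On chromosome 6 the called genes Herc6 (lower) and Pyurf (higher) had no tested gene between them, and Nod1 lay before Herc6 with 11 tested genes between. On chromosome 4, Ppp3r2 and Abca1, both higher, had 2 tested genes between them, and on chromosome 13 Tcstv1 was next to Gm20767, both lower. Chromosomes 8, 10 and 12 had no called gene in limma (91, 139 and 100 at an unadjusted p under 0.05).

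The median difference varied by chromosome. Over 647 chromosome 8 genes above background on all arrays, 82.8% were higher than wild type in Flag-Dppa2 line 2, with a median of 0.44, and 48.1% in line 1. The mock array of line 2 had the same median shift, 0.48, and the mock array of line 1 had -0.00, so both knockout arrays of line 2 showed it and neither of line 1. Chromosome 6 had medians of 0.23 and 0.17 in lines 1 and 2, and chromosome 11 -0.10 and -0.14, against 0.03 and 0.06 over all genes. Between the wild-type arrays the median difference was -0.00 on chromosome 8 and 0.00 on chromosome 6. The part of these shifts in single gene values was not tested.

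**Figure D4:**
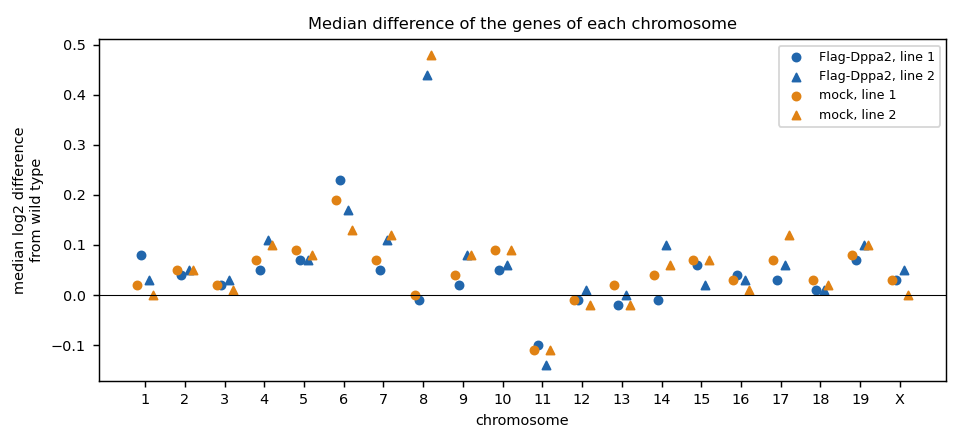
Median log2 difference from the wild-type array of the same number over the genes of each chromosome, for Flag-Dppa2 and mock in lines 1 and 2, over genes above background on all arrays. Chromosome 8 stands apart in line 2, at 0.44 with Flag-Dppa2 and 0.48 in mock, while line 1 is at -0.01 and -0.00.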

How the data were processed

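Per the file headers, the intensity values (gProcessedSignal) were made with Agilent Feature Extraction 10.7.3.1, which subtracts background, on a linear scale with no scaling between arrays. The log2 values that the authors deposited in the series matrix were made with GeneSpring GX11 per the labels; their column medians were all 5.84, they served as 1 alternative only, and were used without centring. The headers name mm9, so reference assembly GRCm38.p6 gave only gene names, chromosomes, gene order and the printed promoters with their own coordinates.

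Of 45018 spots per array, 1639 control spots and flagged outliers were left out, which left 41059 probes, 27143 of them with 1 of 18516 symbols. The array's 75th percentile (719.2 to 856.4 intensity units) was subtracted from log2 signals. A probe had to be well above background on any 2 of the arrays, and the one with the highest mean stood for its symbol, which gave 13298 genes and 5466 unnamed probes. All 6 arrays went into 1 limma fit of 3 groups (limma 3.58.1, R 4.3.3, residual degrees of freedom 3, prior 1.41), two-sided, with Benjamini-Hochberg adjustment over 18764 features, of which 100 (0.533%) were called. The normexp alternative used median signals, since the files hold no column of mean signals. Figures were drawn with matplotlib 3.10.9.

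Replicate numbers mark mothers. Deviations from the group means correlated at 0.01 between wild-type and Flag-Dppa2 arrays of one number and at 0.59 between mock and Flag-Dppa2, which share a line; the planned fit has no block. Nothing says that the arrays of a group are separate cultures beyond their lines, so p-values measure the spread between these samples. Named genes were Dppa2, Dppa4, Pou5f1 and Sox2, the 12 largest called differences each way, up to 4 called genes per list, and called genes with mock near wild type or beyond it on the other side; others were chosen after their values were seen. Members and lists were chosen with earlier results of these data known.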

Additional observations from a re-analysis of the deposited data

How the results depend on the processing

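Against 19 higher and 50 lower genes as reported, limma called 143 and 150 with normexp background correction, 62 and 94 with quantile normalization, 62 and 94 on the deposited log2 values, 140 and 106 with an intensity trend, 7 and 11 over genes above background on all arrays, 0 and 5 without a filter on dim probes, and 0 and 3 on only the arrays of Flag-Dppa2 and wild type. Lower genes thus outnumbered higher ones except with the intensity trend, and barely with normexp. With the wild-type arrays averaged, with the replicate block, and with that block on 4 arrays, 0 were called in each direction (1049, 3028 and 1878 genes at an unadjusted p under 0.05), and leaving out any 1 array gave 0 to 0 (1056 to 3026 genes). No gene among the 69 changed direction with normexp, quantile normalization or the deposited values. In each of the 69 both Flag-Dppa2 arrays lay on the same side of both wild-type arrays, so leaving out 1 array could not change a direction. The other fits reuse the same group means, so a direction could not change there either. Of the 69 genes, 54 remained called with normexp, 67 with quantile normalization and 58 with the trend. Testing every probe called 78 genes. With normexp the named genes Slc35b4 (log2 difference 0.63), Zfy2 (-0.33), Meiob (-0.65) and Xlr5a (-0.78) lost their calls.

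Dppa2 kept its log2 difference of -1.95 and lost its call without the filter (adjusted p = 0.106), over genes above background on all arrays (0.0522), on 4 arrays (0.0932), with wild type averaged (0.456), with the replicate block (0.0924) and with the block on 4 arrays (0.283). These fits reuse the same group means, so that difference was fixed by construction. Leaving out 1 array, which could move it, gave -2.15 to -1.75. The cause of these changes was not tested, beyond the fewer degrees of freedom that averaging, blocking and leaving out arrays give by construction. A slide block could not be fitted, since both Flag-Dppa2 arrays and no wild-type array were on slide 2. No sample group reached the 4 arrays needed for a test of outliers. Genes at background have limits only, so the size of their loss is not known.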

Other observations

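Several genes outside the lists and not called in limma were nonetheless more than 4-fold apart on every array; they were picked out after their values were seen. Ldhc, the sperm form of lactate dehydrogenase, was at -1.27 and -1.29 in wild type, -3.67 and -3.82 in mock and -4.42 and -5.57 in Flag-Dppa2, 13.2-fold below wild type (adjusted p = 0.0545). Nefm, a neurofilament subunit, had a wild-type mean of -0.52 and stood at -4.64 and -6.83 in Flag-Dppa2 (adjusted p = 0.0761). Slpi, a secreted protease inhibitor, was 31.3-fold lower, at -6.23 in line 1 and -3.32 in line 2 against a wild-type mean of 0.19 (adjusted p = 0.168). Ldhc, Nefm and Slpi were each above background on only 1 Flag-Dppa2 array, so their differences rest partly on signal below it. On the higher side, Cldn4, a tight junction protein, was at -0.14 and 0.57 against a mean of -2.58, 6.95-fold higher (adjusted p = 0.126).

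Of the 5466 probes without a symbol, 8 were called higher and 23 lower.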
